A study of Mus musculus with 2 samples.

Results

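The steroid and prolactin receptor genes of mammary luminal cells were described together with their cofactors: Esr1, Pgr, Prlr, Foxa1 and Cited1. These 5 genes, of 31053 genes counted, were taken by symbol from a fixed list, and all 5 had a row in both libraries. Hormone-sensing cells were defined by 1 gene outside the list, Areg, at 5 or more unique molecular identifiers (UMIs, counts of captured transcripts) per 10000 UMIs of the cell. They are called Areg-high cells here, and every other kept cell is called an other cell.

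Luminal cells were sorted by flow cytometry from mammary glands of FVB/NJ mice aged 3.5 months and profiled on the Chromium platform, which reads transcripts from the 3′ end. The group WT carried the Sox9-GFP reporter, and the group C3-TAg carried Sox9-GFP and the C3-TAg transgene, so neither group was free of the reporter. The C3-TAg transgene places the SV40 T antigens, which bind p53 and Rb, under a promoter that is active in mammary epithelium, and its carriers develop mammary tumours. Each group was 1 library, so no test across samples was possible and the genotype cannot be told apart from the library. The number of mice behind a library, and the sort gate, are not given in the sources used here. Neither GFP nor T antigen RNA had a row, so neither was measured.

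Estrogen and progesterone act in the mammary gland largely through a minority of luminal cells that hold their receptors. Esr1 encodes estrogen receptor alpha and Pgr the progesterone receptor, ligand-activated transcription factors, while Prlr encodes the prolactin receptor, a cell-surface cytokine receptor that signals through JAK2 and STAT5. Foxa1 encodes a forkhead pioneer factor that opens chromatin for the estrogen receptor, and Cited1 a transcriptional coactivator of that receptor. Areg encodes amphiregulin, an EGF-receptor ligand and estrogen target that relays the hormone signal to neighbouring cells, so Areg is itself downstream of a listed receptor.

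In GRCm38 (mm10), Esr1 (ENSMUSG00000019768) spans chr10:4611593-5005614 on the plus strand, Pgr (ENSMUSG00000031870) chr9:8899833-8968611 on the plus strand and Prlr (ENSMUSG00000005268) chr15:10177238-10349180 on the plus strand. Foxa1 (ENSMUSG00000035451) lies at chr12:57540628-57546916 and Cited1 (ENSMUSG00000051159) at chrX:102247381-102252181, both on the minus strand. A gene model on the same strand, Gm21973, overlaps Prlr. It had 4 UMIs in all WT barcodes and 3 in all C3-TAg barcodes. Counts were given per gene, so the long and short forms of the prolactin receptor were not separated here.

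The 250 bases before each annotated start were searched for sequence motifs, as a description. Regions further from the starts were not searched. RefSeq (GRCm38.p6) gave 10 such windows, 2 for Esr1, 1 for Pgr, 3 for Prlr, 1 for Foxa1 and 3 for Cited1. Both strands were searched for the forkhead motifs TGTTTAC and TGTTTGC, the estrogen response element GGTCANNNTGACC and its half-site AGGTCA, with which it can overlap. The progesterone response element GNACANNNTGTNC, the STAT motif TTCNNNGAA and the GATA motif AGATAA were searched in the same way. Below, 1 window per gene is shown 5′ to 3′ on the gene's own strand, up to the first annotated exon, with the matches in capitals. They lie at chr10:4709908-4710154 (Esr1), chr9:8899583-8899832 (Pgr), chr15:10223656-10223905 (Prlr), chr12:57546122-57546361 (Foxa1) and chrX:102252182-102252431 (Cited1).
Esr1: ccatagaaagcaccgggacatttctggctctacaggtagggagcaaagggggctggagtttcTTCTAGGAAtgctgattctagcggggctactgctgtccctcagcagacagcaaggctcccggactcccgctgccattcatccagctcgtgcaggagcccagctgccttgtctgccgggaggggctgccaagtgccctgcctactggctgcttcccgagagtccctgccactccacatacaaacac
Pgr: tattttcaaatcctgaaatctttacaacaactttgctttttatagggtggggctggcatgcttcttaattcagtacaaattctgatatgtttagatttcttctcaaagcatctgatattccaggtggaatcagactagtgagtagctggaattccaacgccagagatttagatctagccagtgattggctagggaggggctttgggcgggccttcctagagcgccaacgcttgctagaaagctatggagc
Prlr: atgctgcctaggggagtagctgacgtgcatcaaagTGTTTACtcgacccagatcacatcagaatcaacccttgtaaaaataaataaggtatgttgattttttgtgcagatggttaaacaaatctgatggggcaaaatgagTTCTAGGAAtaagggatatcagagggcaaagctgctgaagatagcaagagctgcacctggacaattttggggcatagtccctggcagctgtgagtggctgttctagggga
Foxa1: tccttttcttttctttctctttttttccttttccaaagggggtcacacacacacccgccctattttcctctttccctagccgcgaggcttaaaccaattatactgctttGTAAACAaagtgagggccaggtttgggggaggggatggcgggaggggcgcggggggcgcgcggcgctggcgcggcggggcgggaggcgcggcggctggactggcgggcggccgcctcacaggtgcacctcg
Cited1: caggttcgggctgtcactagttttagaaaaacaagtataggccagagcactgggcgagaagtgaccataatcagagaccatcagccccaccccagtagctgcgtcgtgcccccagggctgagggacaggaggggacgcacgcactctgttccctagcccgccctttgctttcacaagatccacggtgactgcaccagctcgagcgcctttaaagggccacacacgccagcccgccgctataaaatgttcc

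The printed Prlr window held TGTTTAC 215 bases before the start and a STAT match 110 bases before it. The printed Esr1 window held a STAT match at 188 bases, and the Foxa1 window TGTTTAC, on the opposite strand, at 141 bases. TGTTTAC was thus in 2 of the 10 windows and in 3.16% of 32817 windows of all genes. The STAT motif was likewise in 2 of the 10, against 7.01% of all windows. Among the windows not shown, TGTTTGC was in 1 of Esr1, at 151 bases (4.30% of all windows), and the half-site AGGTCA in 1 of Cited1, at 217 bases (14.0%). No window of the 5 genes held the full estrogen response element (0.0640% of all windows), the progesterone response element (0.387%) or the GATA motif (9.99%). The printed Pgr and Cited1 windows held none of these motifs. A match is a description of the sequence, and binding was not measured.

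The WT file held 8993 barcodes with 91133082 UMIs and the C3-TAg file 9575 barcodes with 91932121 UMIs. After filtering, 7046 WT cells with a median of 10296 UMIs and 7914 C3-TAg cells with a median of 8684 UMIs were kept. Of the barcode sequences, 20 occurred in both files and 17 among the kept cells. Areg-high cells were 2159 in WT, 30.6% of kept cells (95% interval 29.6 to 31.7), and 1757 in C3-TAg, 22.2% (21.3 to 23.1). All intervals are at 95% and cover counting error only, not the spread between mice.

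The Areg-high cells were a range cut from 1 gene's level. Their median Areg was 30.6 UMIs per 10000 in WT and 31.9 in C3-TAg. Between 4 and 5 per 10000, just under the cutoff, lay 71 WT and 171 C3-TAg cells, and between 5 and 6 lay 73 and 122. The epithelial genes Epcam and Krt18 had medians of 45.8 and 47.9 UMIs per 10000 in WT Areg-high cells and of 37.6 and 49.7 in C3-TAg. Elf5, the transcription factor of secretory luminal cells, and the basal keratin Krt14 had medians of 0 in both. The milk protein Csn2 had medians of 1.32 and 0. The leukocyte gene Ptprc stood at 0.0463 counts per 1000000 UMIs (CPM) in WT and had no UMI in C3-TAg. The fibroblast list summed to 730 CPM in WT and 185 in C3-TAg Areg-high cells, of which Dcn gave 729.3 and 135.2. The basal list summed to 27.4 CPM in WT and 375.2 in C3-TAg. Over the clusters of Areg-high cells described further on, it summed to 22.3 and 27.7 CPM.

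All 3 receptor genes and both cofactors were higher in Areg-high than in other cells of both libraries. Esr1 stood at 86.7 CPM (82.8 to 90.7) in WT Areg-high cells and 11.3 in other cells, and at 43.5 (40.2 to 47.0) and 4.36 in C3-TAg. Pgr stood at 115.8 CPM (111.3 to 120.5) and 13.0 in WT, and at 100.3 (95.3 to 105.5) and 5.51 in C3-TAg. Prlr stood at 2358 CPM (2338 to 2379) and 362.4 in WT, and at 1352 (1333 to 1370) and 149.6 in C3-TAg. The C3-TAg library was thus below the WT library for each receptor in both kinds of cells.

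The cofactors had the same order. Foxa1 stood at 105.9 CPM (101.6 to 110.3) in WT Areg-high cells and 15.3 in other cells, and at 89.8 (85.0 to 94.7) and 7.12 in C3-TAg. Cited1 stood at 1358 CPM (1342 to 1373) and 179.1 in WT, and at 586.3 (574.1 to 598.7) and 46.7 in C3-TAg. These levels rest on 1872 Esr1, 2501 Pgr, 50918 Prlr, 2286 Foxa1 and 29319 Cited1 UMIs in WT Areg-high cells. In C3-TAg Areg-high cells the UMIs were 654, 1508, 20314, 1349 and 8811.

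**Figure D1:**
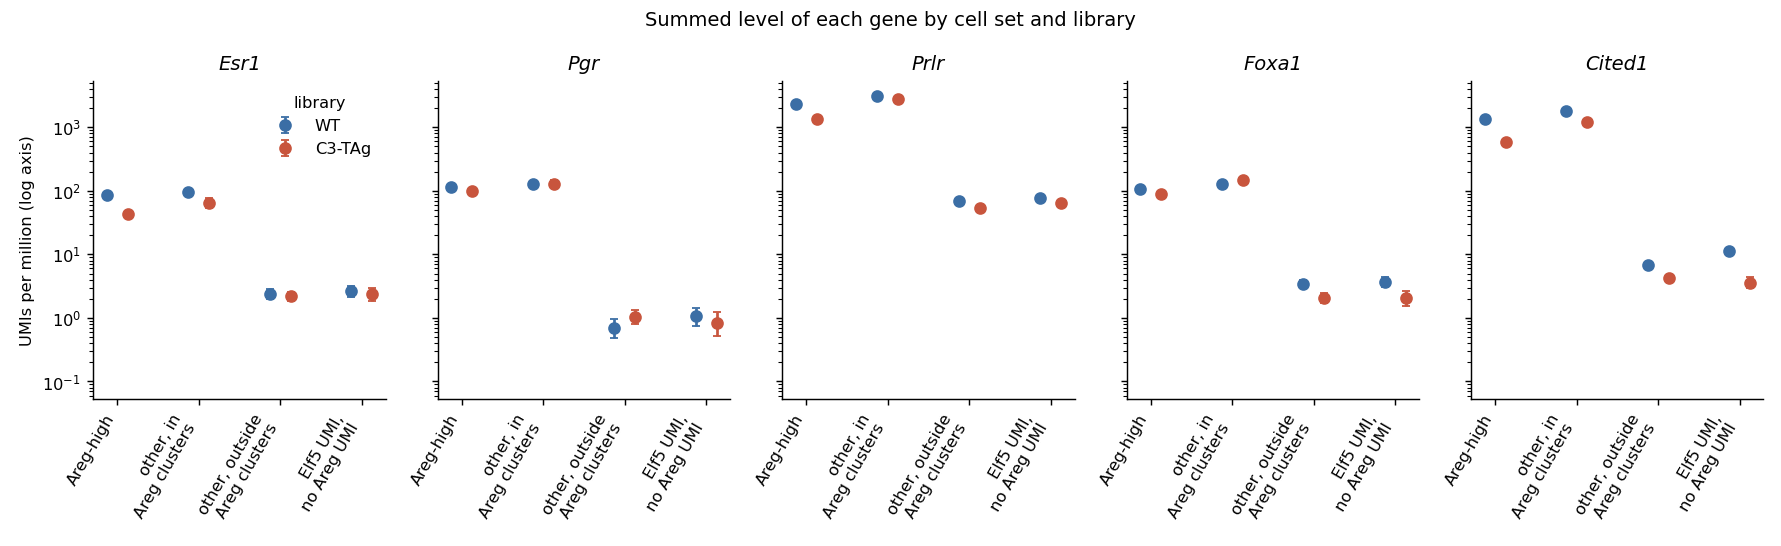
Levels of the 5 genes in CPM (log axis) in several sets of cells of the WT and C3-TAg libraries, with bars for the 95% counting interval. The sets are Areg-high cells, other cells inside and outside the Areg clusters described further on, and cells with an Elf5 UMI and no Areg UMI. Each gene is higher in Areg-high cells than in the last 2 sets. In other cells inside the clusters each gene is higher still, with Esr1 in WT at 95.6 against 86.7 CPM in Areg-high cells.

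In WT, the ratio of Areg-high to other cells was 7.66 for Esr1, 8.88 for Pgr, 6.51 for Prlr, 6.94 for Foxa1 and 7.58 for Cited1. All 5 passed 1.5-fold, as did 33.7% of 13298 genes. In C3-TAg the ratios were 9.97, 18.2, 9.03, 12.6 and 12.6, and all 5 again passed, beside 18.5% of 13757 genes. The size of these ratios depended on which cells were taken, while all 5 stayed past 1.5-fold. Without cells with 2 or more UMIs of G2M cell-cycle genes, the C3-TAg log2 ratio went from 3.65 to 1.48 for Cited1, from 3.32 to 1.72 for Esr1, from 4.19 to 2.23 for Pgr, from 3.18 to 1.44 for Prlr and from 3.66 to 1.83 for Foxa1. That filter also raised the share of C3-TAg other cells in the clusters of Areg-high cells, described further on, from 5.05% to 23.0%. With clusters made without these genes and Areg in place of the cutoff, the log2 ratios ran from 4.99 (Foxa1) to 7.59 (Cited1) in WT and from 4.69 (Esr1) to 7.51 (Cited1) in C3-TAg. A list of other hormone-sensing markers had 12 of 16 members higher in WT and 14 of 16 in C3-TAg, and 2 lower in each. Of the secretory luminal list, 14 of 14 measured members were lower in WT Areg-high cells and 13 of 14 in C3-TAg. The share of all genes that were lower was not counted. The median log2 ratio of the secretory list was −4.67 in WT and −3.46 in C3-TAg, against 0.22 and −0.09 over all genes.

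A UMI in a cell does not by itself show expression, since free RNA also gives UMIs. Cells were therefore thinned to 2000 UMIs each and set beside luminal cells with an Elf5 UMI and no Areg UMI, which served as the background. In WT Areg-high cells, 15.8% had an Esr1 UMI, 18.6% a Pgr UMI and 96.1% a Prlr UMI. The background shares were 0.403%, 0.268% and 12.9%. In C3-TAg the shares were 9.02%, 18.1% and 76.1%, over background shares of 0.548%, 0.157% and 11.6%. Esr1 and Pgr were thus detected in few background cells of either library, whereas about as many background cells of both libraries held a Prlr UMI. Whether those Prlr UMIs were free RNA or the cells' own was not tested. Thinning left out 7 WT and 5 C3-TAg Areg-high cells. Median depths were 9572 UMIs in WT Areg-high and 11833 in WT background cells, and 7959 and 9838 in C3-TAg.

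Foxa1 was detected in 18.7% of thinned WT and 16.4% of thinned C3-TAg Areg-high cells, over backgrounds of 0.772% and 0.470%. Cited1 was detected in 78.2% of WT and 46.9% of C3-TAg Areg-high cells, over 1.91% and 0.626%. Without thinning, the WT shares were 54.7% for Esr1, 59.1% for Pgr, 99.3% for Prlr, 60.1% for Foxa1 and 96.3% for Cited1. The unthinned C3-TAg shares were 29.1%, 46.2%, 85.1%, 46.0% and 65.6%.

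The genes did not keep 1 ratio to each other across cell types. Per 100 Prlr UMIs, Cited1 had 57.6 UMIs in WT Areg-high cells and 14.4 in the WT background, and 43.4 and 5.53 in C3-TAg. Pgr had 4.91 per 100 Prlr UMIs in WT Areg-high cells and 1.35 in the background, and 7.42 and 1.26 in C3-TAg. Esr1 differed less, with 3.68 and 3.35 in WT and 3.22 and 3.61 in C3-TAg. Foxa1 had 4.49 and 4.73 in WT, and 6.64 and 3.17 in C3-TAg. Relative to Prlr, the background cells of both libraries thus held fewer Cited1 and Pgr UMIs than the Areg-high cells, and those of C3-TAg also fewer Foxa1 UMIs. Of the endothelial or immune cells outside the clusters described next, 26 were WT cells, with 203221 UMIs in total. They held 16 Prlr, 1 Esr1, 2 Cited1 and no Pgr or Foxa1 UMIs. The 19 such C3-TAg cells, with 191737 UMIs in total, held 8 Prlr, 1 Pgr and 1 Cited1 UMIs and none of Esr1 or Foxa1. For comparison, the background cells held 2896 Prlr among 37033468 WT UMIs, and 1827 among 28139195 C3-TAg UMIs. The low Prlr counts thus go with small totals and do not by themselves show less Prlr than in the background. The source of these Prlr UMIs was not tested.

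The kept cells were also clustered with the 5 genes and Areg left out of the clustering. Areg-high cells made up most of 2 clusters, 77.9% of cluster 3 and 81.7% of cluster 5, which are called the Areg clusters. Cluster 3 held 2733 WT cells of 2740, and cluster 5 held 1707 C3-TAg cells of 1716, so each was nearly 1 library. What sets these clusters apart from each other thus cannot be told apart from the library. Other cells of each library lay in other clusters, the largest being cluster 1 for WT (3424 cells) and cluster 2 for C3-TAg (3181 cells). In WT, 25 Areg-high cells (1.16%) lay outside these clusters. In C3-TAg 354 did, 20.1% of that library's Areg-high cells. Ratios between the libraries are therefore also given inside the Areg clusters.

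The C3-TAg Areg-high cells outside the Areg clusters held few receptor UMIs. Esr1 stood at 2.98 CPM in these 354 cells, Pgr at 5.14, Prlr at 59.0, Foxa1 at 4.60 and Cited1 at 11.9. After thinning 7.14% of them had a Prlr UMI and 0 of 350 a Foxa1 UMI, a count of 0 that at this depth allows a share with a UMI of 0.857%. Without thinning, 27.1% had a Prlr and 3.39% a Foxa1 UMI. The 25 WT cells of this kind stood at 7.44 CPM for Esr1, 14.9 for Pgr, 315 for Prlr, 7.44 for Foxa1 and 126.5 for Cited1. Of the thinned C3-TAg cells outside the clusters, 70.3% had 2 or more UMIs of a list of G2M cell-cycle genes, against 1.36% of C3-TAg Areg-high cells inside them. Over all Areg-high cells this share was 0.232% in WT and 15.1% in C3-TAg. The part of the cell-cycle genes in the receptor levels was not tested.

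Between libraries, the receptors differed unequally in Areg-high cells. As log2 ratios of C3-TAg over WT, Esr1 was at −0.99 (−1.13 to −0.87), Prlr at −0.80 (−0.83 to −0.78) and Pgr at −0.21 (−0.30 to −0.11). Cited1 was at −1.21 (−1.25 to −1.18) and Foxa1 at −0.24 (−0.34 to −0.14). Esr1, Prlr and Cited1 were thus lower by at least 1.5-fold, 3 of 5 genes, beside 9.51% of 12572 genes. The median over all genes was 0.15, and TMM scaling lowered every ratio by 0.18, which left the same 3 genes past 1.5-fold.

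Restricted to Areg-high cells in the Areg clusters, the differences were smaller, and Pgr and Foxa1 were slightly higher in C3-TAg. Esr1 stood at 88.2 CPM in WT and 56.7 in C3-TAg (log2 ratio −0.64, −0.77 to −0.51), and Cited1 at 1381 and 773.4 CPM (−0.84). These 2 of 5 genes were lower by 1.5-fold, beside 9.71% of 11995 genes, and the interval of Esr1 reached inside 1.5-fold. Prlr stood at 2397 and 1773 CPM (−0.44), inside 1.5-fold. Pgr stood at 117.7 CPM in WT and 131.4 in C3-TAg (0.16, 0.06 to 0.25), and Foxa1 at 107.7 and 117.5 (0.13, 0.03 to 0.22). Both were higher by less than 1.5-fold, a size that 1 library a group cannot place against the spread between mice. TMM scaling lowered these ratios by 0.08, to 0.07 for Pgr and 0.04 for Foxa1.

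Detection in these cells followed the levels. At 2000 UMIs, Esr1 was detected in 16.0% of WT and 11.1% of C3-TAg cells, and Cited1 in 79.0% and 58.2%. Prlr was detected in 96.8% and 93.4%, Pgr in 18.8% and 22.5%, and Foxa1 in 18.8% and 20.5%. The median cell held 11.0 Cited1 UMIs per 10000 in WT and 4.96 in C3-TAg, and 22.7 and 16.3 for Prlr. The Cited1 and Prlr differences were thus present in the middle of the distribution and not in a few cells alone. Over all cells of the Areg clusters, whatever their Areg level, Cited1 was at −0.79, Esr1 at −0.63, Prlr at −0.39, Pgr at 0.13 and Foxa1 at 0.13 on the log2 scale. Here too Cited1 and Esr1 were the 2 genes lower by 1.5-fold, beside 9.43% of 12293 genes.

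**Figure D2:**
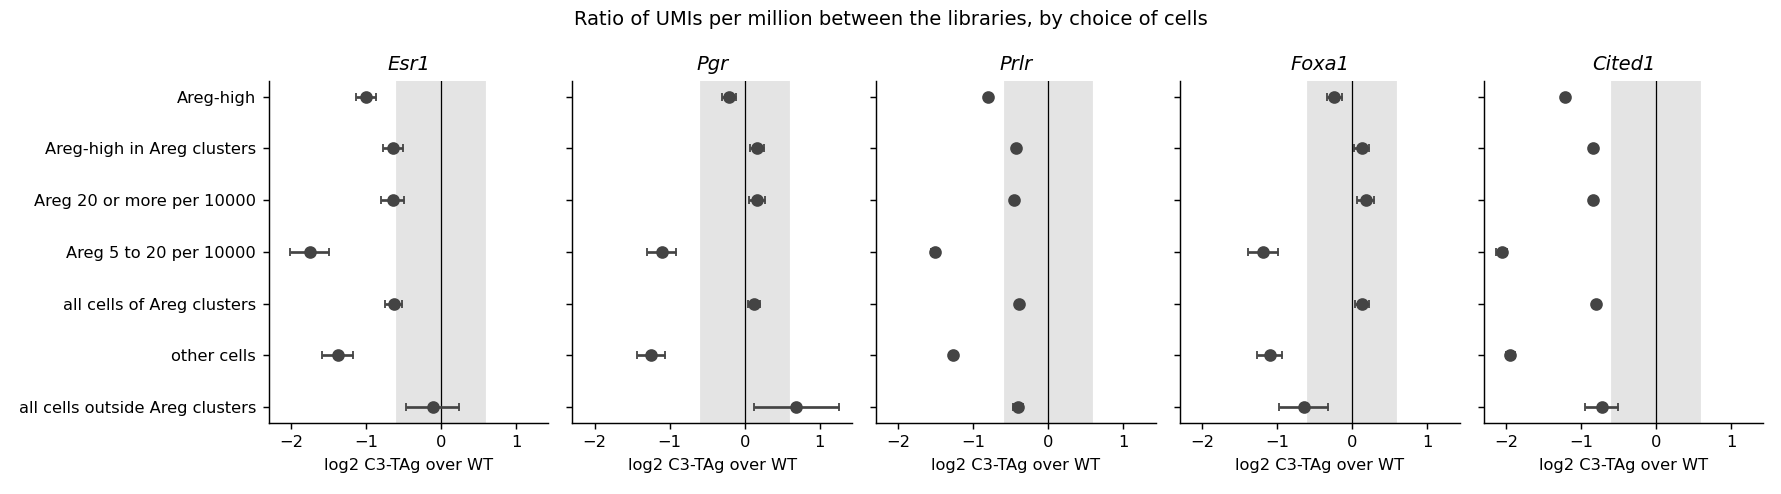
Log2 ratio of C3-TAg over WT for the 5 genes in several sets of cells, with 95% counting intervals and the range inside 1.5-fold shaded. Esr1 and Cited1 lie below the shaded range both in all Areg-high cells (−0.99 and −1.21) and in those of the Areg clusters (−0.64 and −0.84), while Pgr and Foxa1 lie near 0 and are on opposite sides of it in these sets.

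Among other cells, all 5 genes were lower in C3-TAg by 1.5-fold, beside 11.2% of 14171 genes, but this direction depended on the cells that were included. The log2 ratios were −1.94 for Cited1, −1.37 for Esr1, −1.28 for Prlr, −1.24 for Pgr and −1.10 for Foxa1. The 2 libraries differed in how many other cells belonged to the Areg clusters, 608 of 4887 in WT (12.4%) and 311 of 6157 in C3-TAg (5.05%). Cells in the Areg clusters held 81.0% of the Esr1, 95.3% of the Pgr, 82.6% of the Prlr, 79.4% of the Foxa1 and 96.6% of the Cited1 UMIs of WT other cells. In C3-TAg they held 51.5%, 81.8%, 65.4%, 71.6% and 91.3%. The receptor UMIs of other cells thus came mostly from a small share of those cells. Of thinned other cells, 0.267% in WT and 50.4% in C3-TAg had 2 or more G2M UMIs. Without cells that had 2 or more such UMIs before thinning, all 5 genes were higher in C3-TAg, by 0.55 for Cited1, 0.56 for Esr1, 0.82 for Prlr, 1.01 for Pgr and 1.09 for Foxa1. That filter left 1255 C3-TAg other cells, 23.0% of them in the Areg clusters, and 4733 WT other cells, 12.6% of them there.

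Over all cells outside the Areg clusters the ratios were nearer 0. Cited1 was at −0.72 and Foxa1 at −0.64, the 2 genes lower by 1.5-fold, beside 10.1% of 14042 genes. Prlr was at −0.41, Esr1 at −0.11 (−0.47 to 0.25) and Pgr at 0.69 (0.13 to 1.26). Pgr was thus higher by 1.5-fold, beside 43.9% of these genes. TMM scaling, which lowered these ratios by 0.43, put Pgr at 0.25, inside 1.5-fold, and Prlr at −0.84, past it. These ratios are of low levels. In other cells outside the clusters, Pgr stood at 0.683 CPM in WT and 1.04 in C3-TAg, Esr1 at 2.38 and 2.19, and Foxa1 at 3.47 and 2.10. The unscaled interval of Esr1 included 0, whereas with TMM scaling its ratio was at −0.55, inside 1.5-fold. Its size thus depended on the scaling.

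Other cells inside the Areg clusters, with Areg under the cutoff, also held the receptors. In WT they stood at 95.6 CPM for Esr1, 129.6 for Pgr, 3123 for Prlr, 126.3 for Foxa1 and 1805 for Cited1. As log2 ratios over Areg-high cells of the same clusters these were 0.12, 0.14, 0.38, 0.23 and 0.39, none of 5 past 1.5-fold, beside 6.85% of 11606 genes. In C3-TAg they stood at 64.6, 129.6, 2814, 146.5 and 1226 CPM. There Prlr (0.67) and Cited1 (0.66) passed 1.5-fold, 2 of 5 beside 11.8% of 10913 genes, whereas Esr1 (0.19), Foxa1 (0.32) and Pgr (−0.02) did not. With TMM scaling both stood at 0.52, inside 1.5-fold. At 2000 UMIs, however, Esr1 was detected in 9.35% of these C3-TAg cells and in 11.1% of the Areg-high cells of the clusters, and Pgr in 21.3% and 22.5%.

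**Figure D3:**
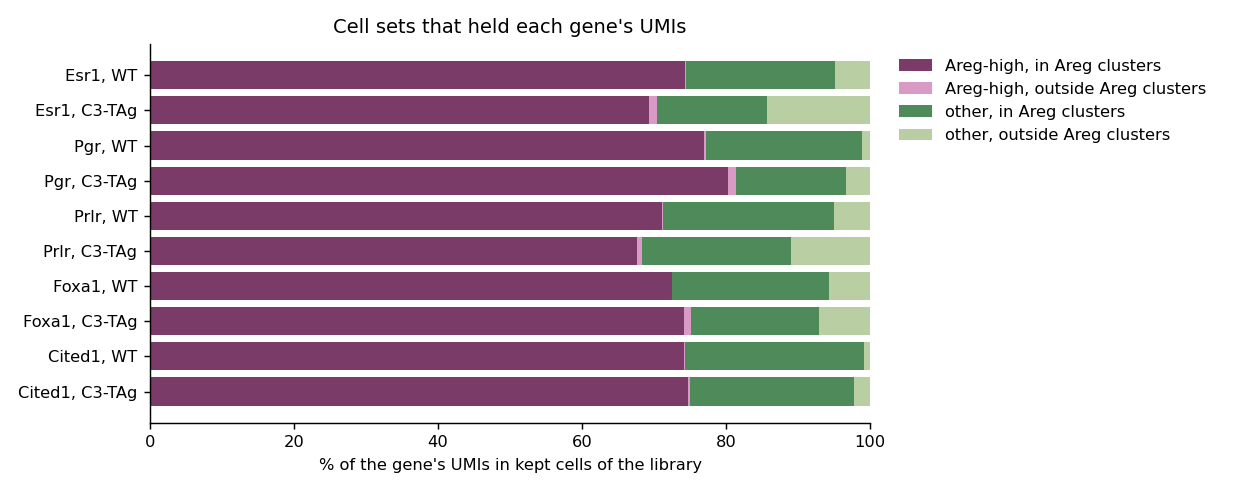
Share of each gene's UMIs (percent) that came from Areg-high and other cells inside and outside the Areg clusters, for WT and C3-TAg. Areg-high cells in the Areg clusters gave 71.1% to 77.0% of the UMIs in WT and 67.6% to 80.3% in C3-TAg, and the share from other cells outside the clusters ran from 0.871% for Cited1 in WT to 14.3% for Esr1 in C3-TAg.

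By Areg level, the libraries had different profiles. In WT, Esr1 stood at 6.32 CPM in cells with no Areg UMI, 26.8 in cells under 5 per 10000, 92.6 in cells from 5 to 20 and 84.0 in cells at 20 or more. In C3-TAg the same steps gave 3.41, 5.99, 27.6 and 53.9. The step from 5–20 to 20 or more was between −0.19 and 0.03 on the log2 scale for the 5 genes in WT. In C3-TAg it lay between 0.87 and 1.30, and all 5 genes were higher by 1.5-fold, beside 11% of 11542 genes. Inside the Areg clusters this C3-TAg step lay between −0.33 for Prlr and 0.13 for Pgr, and 0 of 5 genes passed 1.5-fold, beside 5.25% of 10657 genes. The WT step there lay between −0.27 and −0.05. The increase past the cutoff in C3-TAg was thus seen only with the cells outside the clusters included.

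The receptors Pgr and Prlr followed these profiles. Pgr went from 7.02 to 31.7, 114.4 and 116.5 CPM over the 4 WT steps and from 3.24 to 9.39, 53.3 and 130.9 in C3-TAg. Prlr went from 211 to 830, 2576 and 2257 CPM in WT and from 113.6 to 211, 902 and 1644 in C3-TAg. In the highest step, Pgr in C3-TAg was thus above its WT level by a log2 ratio of 0.17, or 0.07 with TMM scaling. Prlr was below its WT level there.

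The same steps were taken by the cofactors. Foxa1 went from 9.01 to 34.6, 114.1 and 102 CPM in WT and from 4.85 to 11.0, 50.2 and 115.4 in C3-TAg. Cited1 went from 90.8 to 452, 1413 and 1332 CPM in WT and from 29.8 to 75.5, 340 and 746 in C3-TAg. At 20 or more Areg UMIs per 10000, the C3-TAg over WT log2 ratios were −0.84 for Cited1 and −0.64 for Esr1, beside 8.99% of 11594 genes lower. Prlr was at −0.46, Pgr at 0.17 and Foxa1 at 0.18 there. From 5 to 20 all 5 genes were lower, from −2.06 for Cited1 to −1.10 for Pgr, beside 15.1% of 11452 genes. In that step 37.3% of thinned C3-TAg cells and 0.143% of WT cells had 2 or more G2M UMIs. Inside the Areg clusters, the ratios from 5 to 20 were −0.88 for Cited1, −0.65 for Esr1, −0.36 for Prlr, 0.02 for Pgr and −0.06 for Foxa1, so 2 of 5 genes were lower, beside 10.8% of 10334 genes. At 20 or more they were −0.80 for Cited1 and −0.61 for Esr1, the 2 lower genes beside 9.39% of 11505 genes, and −0.43 for Prlr, 0.20 for Pgr and 0.21 for Foxa1. With TMM scaling Pgr from 5 to 20 was at −0.07.

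**Figure D4:**
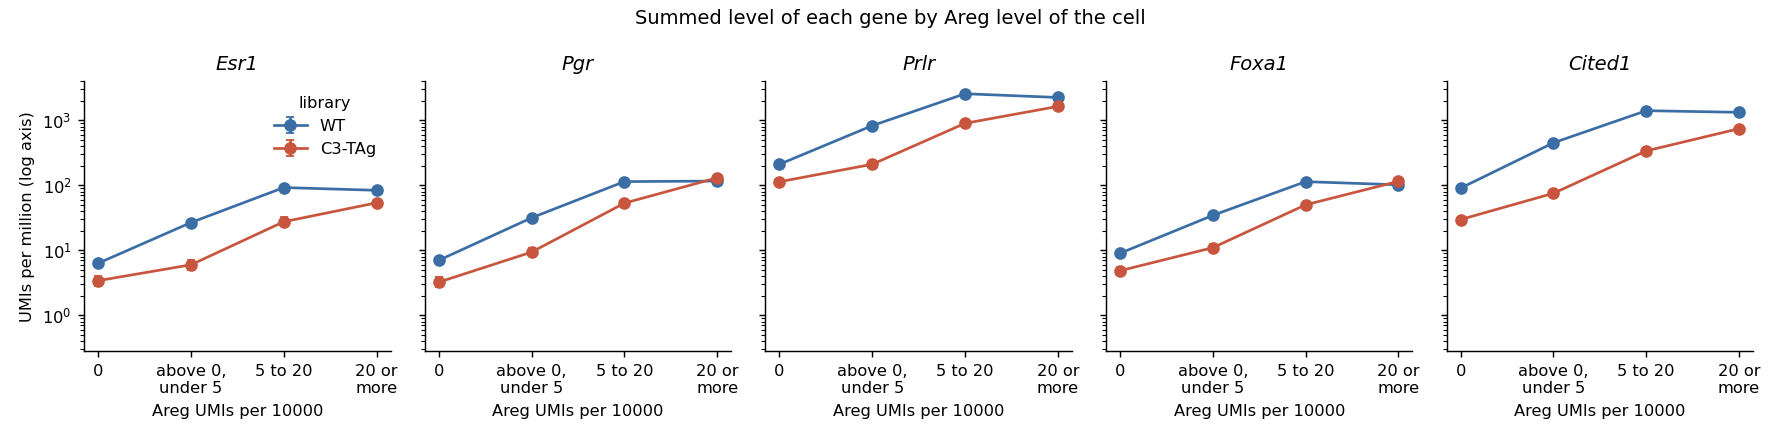
Levels of the 5 genes in CPM (log axis) over 4 ranges of Areg level for WT and C3-TAg, with 95% counting intervals. The WT lines are flat above the cutoff of 5 per 10000, whereas the C3-TAg lines continue upwards, Esr1 from 27.6 to 53.9 CPM. Cells outside the Areg clusters are included, and inside the clusters Esr1 stood at 62.5 and 55.2 CPM in these C3-TAg ranges.

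The shares of cells in which receptors were detected together were set beside the products of their single shares. In thinned WT Areg-high cells, 3.58% (2.83 to 4.45; 77 cells) had UMIs of both Esr1 and Pgr, and the product of the single shares was 2.95%. Esr1 and Prlr were found together in 15.5% (14.0 to 17.1), with a product of 15.2%. Pgr and Prlr were found together in 18.2% (16.6 to 19.9), with a product of 17.9%. In WT all 3 products lay inside the intervals. Since Prlr was detected in 96.1% of these cells, a pair with Prlr could hardly exceed its product, and only Esr1 with Pgr is informative there. The background cells held 1 cell of 2980 with both Esr1 and Pgr in WT and 1 of 2555 in C3-TAg.

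In C3-TAg Areg-high cells, Esr1 and Pgr were found together in 1.71% (1.16 to 2.44; 30 cells), with a product of 1.63%. The pairs with Prlr were above their products, 8.39% (7.13 to 9.79) against 6.87% for Esr1 and 16.9% (15.2 to 18.7) against 13.8% for Pgr. Inside the Areg clusters these values were 10.4% against 10.3% and 21.1% against 21.0%. Prlr was detected in 93.4% of C3-TAg cells there, which again leaves little room for an excess. Inside the clusters, Esr1 and Pgr were together in 2.14% of C3-TAg cells (1.45 to 3.04), with a product of 2.49%, and in 3.62% of WT cells, with a product of 3.01%.

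The relation of Esr1 with Pgr to its product was also taken at greater depth. At 5000 UMIs per cell, Esr1 and Pgr were together in 15.3% of WT Areg-high cells (product 14.1%) and in 9.07% of C3-TAg cells (7.73 to 10.6; product 7.21%). Inside the Areg clusters the C3-TAg value was 11.2%, with a product of 10.9%. Without thinning, the WT share was 34.0% (32.0 to 36.1; product 32.4%) and the C3-TAg share 17.4% (15.6 to 19.2; product 13.5%). Inside the clusters the C3-TAg share was 21.6% (19.5 to 23.8; product 20.3%). In C3-TAg the pair was thus near its product at 2000 UMIs and above it at greater depth over all Areg-high cells. Inside the clusters the product lay inside the interval at each depth, so no change with depth can be read there. Unthinned cells differ in depth, and the part of this in the shares was not tested. Pgr was detected at 2000 UMIs in 22.6% (18.3 to 27.4) of WT Areg-high cells with an Esr1 UMI and in 17.9% (16.2 to 19.7) of those without. In C3-TAg these shares were 19.0% and 18.0%.

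**Figure D5:**
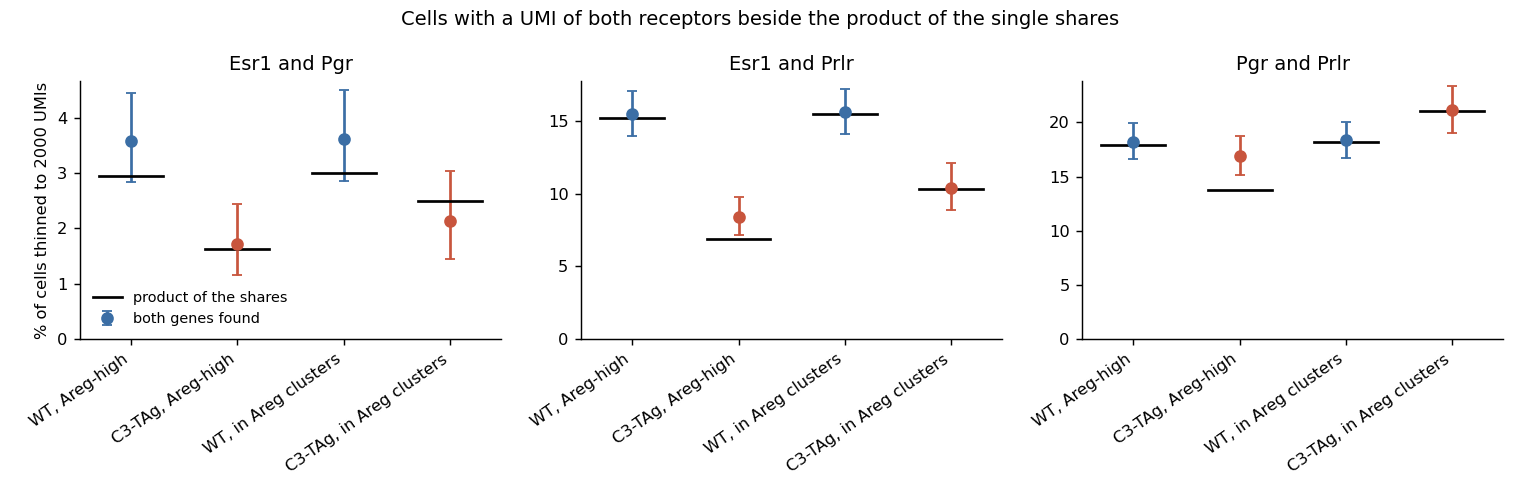
Share of thinned Areg-high cells (percent) with UMIs of both receptors of a pair, with 95% binomial intervals, beside the product of the single shares, for WT and C3-TAg. The pairs with Prlr in C3-TAg lie above their products over all Areg-high cells, 8.39% against 6.87% for Esr1, and at them inside the Areg clusters.

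By combination, 65.9% of WT and 52.5% of C3-TAg Areg-high cells had Prlr alone at 2000 UMIs, 39.4% and 36.1% at 5000 UMIs and 19.5% and 27.8% without thinning. At 2000 UMIs, Pgr with Prlr made up 14.7% and 15.2%, Esr1 with Prlr 12.0% and 6.74%, and all 3 receptors 3.49% and 1.66%. Cells without any receptor UMI were 3.16% of the WT and 22.1% of the C3-TAg cells. Inside the Areg clusters, cells with none were 2.49% and 4.64%. The share of C3-TAg cells without a receptor UMI was thus mainly that of cells outside the clusters. At 5000 UMIs, cells with all 3 receptors were 15.3% in WT and 8.95% in C3-TAg, and cells with none 0.669% and 16.6%.

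Subsets of Areg-high cells were compared by markers that are not among the 5 genes. Cells with Fxyd2 or Cdh13 UMIs (422 in WT, 267 in C3-TAg) were set against cells with Fgb or Calca UMIs (959 and 558). Prlr stood at 2945 CPM in the first and 2064 in the second subset of WT, and at 2601 and 1453 in C3-TAg. Its log2 ratio was 0.51 in WT and 0.84 in C3-TAg. Pgr stood at 137.4 and 101.6 CPM in WT (0.44) and at 112.6 and 147.9 in C3-TAg (−0.39), so its order differed between libraries, which was not tested across samples. Cited1 was at 0.12 and 0.23, Esr1 at 0.37 and −0.05 and Foxa1 at 0.42 and 0.03. With TMM scaling Cited1 in WT (−0.05) and Foxa1 in C3-TAg (−0.06) lay on the other side of 0. None of 5 genes passed 1.5-fold in WT, beside 13.4% of 10763 genes, and 1, Prlr, in C3-TAg, beside 11.4% of 9956 genes. Inside the Areg clusters, which held all but 3 WT and 1 C3-TAg of these cells, Prlr was at 0.51 and 0.83 and Pgr at 0.43 and −0.39. There again 0 of 5 genes passed in WT, beside 13.5% of 10755 genes, and Prlr in C3-TAg, beside 11.5% of 9939 genes.

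Calca, the gene of calcitonin and CGRP and a progesterone target, was higher in cells with an Esr1 UMI. By subsets, however, Esr1 stood at 78.9 CPM in the Fgb or Calca cells of WT and at 102.1 in the Fxyd2 or Cdh13 cells. For the C3-TAg subsets these levels were 56.8 and 55.0. In Areg-high cells of the Areg clusters at 2000 UMIs, Calca stood at 397.4 CPM in WT cells with an Esr1 UMI and 245.8 in cells without (log2 ratio 0.69, 0.49 to 0.89). In C3-TAg the levels were 183.9 and 88.2 (1.06, 0.61 to 1.49). Cells with a Cited1 UMI also had more Calca, 290.4 against 193.5 CPM in WT and 128.1 against 58.0 in C3-TAg. Cells with a Pgr UMI had less Calca in WT, 202.5 against 285.7 CPM, and more in C3-TAg, 132.9 against 88.9. Prlr was higher in cells with an Esr1 UMI by 0.15 in WT and 0.25 in C3-TAg on the log2 scale. Cited1 was lower in such cells of C3-TAg by a log2 ratio of −0.33 (−0.55 to −0.12). Cells of 1 library share their source, and these intervals cover counting error of summed UMIs only. The spread between cells and between mice is not in them.

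Other genes of hormone signalling were counted between libraries in Areg-high cells, by lists. Over all 12572 genes the median was 0.15, with 23.7% higher and 9.51% lower by 1.5-fold. Over all cells of the Areg clusters, 12.4% of 12293 genes were higher and 9.43% lower. Of 22 other nuclear hormone receptors, 18 were measured, 4 higher and 3 lower in C3-TAg by 1.5-fold, with a median of −0.13. Nr4a1, an immediate early orphan receptor, was at 2.18 and Nr3c1, the glucocorticoid receptor, at 1.24, whereas the retinoic acid receptor Rara was at −0.73. Over all cells of the Areg clusters Nr4a1 was at −0.41 and Nr3c1 at −0.24, and 1 of 18 was higher and 2 lower. Esr2, the gene of estrogen receptor beta, had no UMI in Areg-high cells of either library.

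Of 20 estrogen receptor coregulators, 18 were measured, 1 higher and 1 lower, with a median of 0.04. The lower gene was Tbx3, a T-box factor of luminal cells, at −1.12, and at −0.73 over all cells of the Areg clusters. There 0 of 19 were higher and 2 lower. Among 16 genes of prolactin signalling, 2 were higher and 2 lower, with a median of −0.10. Stat5a, which encodes the transcription factor downstream of the prolactin receptor, was at −0.78, and at −0.47 over the Areg clusters, where Jak2, the kinase bound to the receptor, was at 0.57. There 0 of 16 were higher and 2 lower.

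Of 18 hormone target genes, 17 were measured, 5 higher and 7 lower, with a median of −0.02. Calca stood at 286.9 CPM in WT and 72.5 in C3-TAg (−1.98), and Stc2, a secreted glycoprotein gene responsive to estrogen, at 731.5 and 217.7 (−1.75). The cyclin gene Ccnd1 was at −1.75, and Sgk1, a kinase gene induced by steroids, at 1.01. Over the Areg clusters Ccnd1 was at −1.65, Stc2 at −1.40, Calca at −1.34 and Sgk1 at 1.10, with 3 of 16 higher and 7 lower.

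The genes with the most similar profiles were found over 8 groups, the 4 Areg ranges in both libraries, by the Euclidean distance of centred log2(CPM + 5) values among 7076 genes. Nearest to Esr1 were Hdac11 (0.274), Podxl (0.306) and Tbx3 (0.308). Nearest to Pgr was Crym (0.195), then Slc5a5 (0.453) and Agtr1a (0.486), and nearest to Prlr were Slc7a2 (0.321), Capsl (0.425) and Dnajc12 (0.433). Foxa1 was nearest to Slc5a5 (0.305), Msx2 (0.370) and Agtr1a (0.390), so Slc5a5 and Agtr1a were near both Pgr and Foxa1. Cited1 had no gene as near as the others had, with Stc2 at 0.718 and Fam43a at 0.806. Among the 5 genes, Pgr and Foxa1 were the closest pair (0.457) and Foxa1 and Cited1 the most distant (1.74). The groups include the cells outside the Areg clusters, share libraries and a depth, and the distances are descriptions of 2 libraries.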

How the data were processed

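Per the labels, each group was 1 single-cell library of sorted mammary luminal cells. The authors deposited UMI counts per gene and barcode, whole numbers without normalization, and used Cell Ranger (3.1.0) and mm10, per the submitters' processing notes. The calling of barcodes was not given in the sources used here.

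Barcodes with at least 500 genes, at least 1000 UMIs and at most 10% mitochondrial UMIs were kept (7406 in WT, 8458 in C3-TAg), less the doublets that Scrublet called in each library (360, 4.86%, and 544, 6.43%). Counts were summed over cells and divided by the total (CPM). Levels have exact Poisson, ratios exact conditional Poisson and shares Clopper-Pearson 95% intervals. No p-value was computed. A gene was measured in a comparison with at least 20 UMIs over both sides and called higher or lower from 1.5-fold. A count of 0 was given the limit of 3 counts. To compare detection, cells were thinned to 2000 UMIs, without those of lower depth. Leiden clusters (resolution 0.5, 30 components, 15 neighbours, 2000 variable genes) were made on both libraries together without integration. Areg clusters had over 50% Areg-high cells. Subsets needed 5 UMIs per 10000 of 1 marker pair and fewer of the other. Symbols with more than 1 row (35 rows) were left out. The ratio step was tested on simulated counts. The members, lists and rules were chosen with earlier results of these data known. The endothelial and immune cells outside the Areg clusters, and the Areg ranges and subsets inside them, were added after seeing the data.

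The genes named are the 5 members, up to 4 genes per list and comparison with at least 20 CPM and the largest or smallest ratio, the nearest genes by profile with at least 20 CPM in a group, and marker genes of other cell types. Calca, Dcn and Esr2 beyond these were chosen after their values were seen. Alternatives were other Areg cutoffs, clusters in place of the cutoff, TMM scaling, other folds, depths and filters. Python 3.11.15 was used with numpy 2.4.6, pandas 2.3.3, scipy 1.17.1, scanpy 1.11.5, anndata 0.12.19, leidenalg 0.10.2 and matplotlib 3.10.9.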

Additional observations from a re-analysis of the deposited data

How the results depend on the processing

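With 1 library per group, no library could be left out. No paired analysis was possible because each group has 1 replicate. The leaving out of cells with 2 or more G2M UMIs and of Areg-high cells outside the Areg clusters was chosen after seeing the data. Of the values for single genes and pairs, 167 kept their direction and size, 95 moved and 18 reversed. The 167 include settings that cannot change a ratio, namely the other fold and the lack of a filter on low counts. They are thus not a measure of robustness. Of the main counts and shares 68 stayed and 16 moved.

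Of the 5 genes, 3 were lower in C3-TAg Areg-high cells, beside 9.51% of 12572 genes. This count was 5 with an Areg cutoff of 2 and 1 with a fold of 2. Esr1, at 1.99-fold (1.82 to 2.18), lay just under that fold. For other cells the count of 5 (beside 11.2% of 14171 genes) became 2 outside the Areg clusters (beside 10.1% of 14042 genes). It became 0 without cells with G2M UMIs. The share of all genes was not counted with the other cutoff, the other fold or without cells with G2M UMIs. Without the latter cells the log2 ratios were 0.55 for Cited1, 0.56 for Esr1, 1.09 for Foxa1, 1.01 for Pgr and 0.82 for Prlr. That filter left 1255 of 6157 C3-TAg other cells, 23.0% of them in the Areg clusters, and 4733 WT cells, 12.6% of them there. Pgr in other cells was at 0.69 outside the clusters. In Areg-high cells, with a cutoff of 10, by clusters, without G2M cells and without cells outside the clusters in turn, Foxa1 was at 0.014, 0.13, 0.14 and 0.13. Pgr was at 0.0077, 0.13, 0.14 and 0.16, and Esr1 with Pgr over its product in C3-TAg at −0.032, −0.15, −0.29 and −0.22 (log2).

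The share of C3-TAg Areg-high cells with a UMI of any of the 3 receptors was 77.9%. It was 61.2% with a cutoff of 2, 88.3% with 10, 95.9% by clusters, 83.4% at 5000 UMIs, 85.8% without thinning, 93.8% without G2M cells and 95.4% without cells outside the clusters. In WT the share of 96.8% was 94.8% with a cutoff of 2, 95.8% with doublets kept, 97.7% by clusters, and 99.3% both at 5000 UMIs and without thinning. Depth limits the detection of Esr1, Pgr and Foxa1, and whether a cell without a UMI lacks the RNA cannot be told apart from low depth.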
